A study of Mus musculus with 59 samples.

Results

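Levels of 10 neuropeptide genes were followed in the prefrontal cortex of young mice: Sst, Vip, Npy, Cck, Crh, Tac1, Penk, Pdyn, Cort and Adcyap1. They were taken by name from a deposited table of 18088 genes, and all 10 were in it and passed the filter on low values that left 16599 genes for testing. Messenger RNA had been sequenced from 59 C57BL/6J mice analysed on postnatal day 25, after pups had received a drug or vehicle through the dam's milk from day 3 to day 24, a period of 3 weeks. The mice formed 6 arms: mice with 1 knock-in copy of Shank3 (HT) given fluoxetine, lithium or vehicle, and wild-type mice (WT) given fluoxetine, lithium or vehicle. Each arm held 10 libraries, 5 of each sex, except WT lithium with 9, of which 4 were from females. All deposited column names carry the tag L68P, those of WT mice included. Fluoxetine, a serotonin reuptake inhibitor, and lithium are drugs for mood disorders. Doses and litters are not given in the labels, so pups of a litter that shared a dam are counted as independent in every p-value here.

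Neuropeptides are cut from larger precursor proteins by enzymes of the secretory pathway, stored in dense-core vesicles and released onto receptors that act mostly through G proteins. In the cortex most of these precursors mark classes of inhibitory interneuron, while some are also made by excitatory neurons. Several of the genes are known for transcription that follows neuronal activity and cAMP signalling. In bulk tissue, fewer cells that make a peptide and less of its RNA in each cell cannot be told apart.

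Coordinates are GRCm38 with gene models of GENCODE vM21, and none of the 10 genes overlapped another gene of the table. Sst (ENSMUSG00000004366, chr16:23889573-23890958, minus strand) encodes somatostatin, the peptide of interneurons that target dendrites. Cort (ENSMUSG00000028971, chr4:149125034-149126763, minus strand) encodes cortistatin, a relative of somatostatin that binds its receptors. Npy (ENSMUSG00000029819, chr6:49822710-49829507, plus strand) encodes neuropeptide Y, found in several interneuron classes. Vip (ENSMUSG00000019772, chr10:5639218-5647617, plus strand) encodes vasoactive intestinal peptide, which marks interneurons that inhibit other interneurons. Crh (ENSMUSG00000049796, chr3:19693401-19695396, minus strand) encodes corticotropin-releasing hormone, a stress peptide that cortical interneurons also make. Cck (ENSMUSG00000032532, chr9:121489824-121495694, minus strand) encodes cholecystokinin, made by a class of basket cells and by excitatory neurons.

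The tachykinin gene Tac1 (ENSMUSG00000061762, chr6:7554879-7565834, plus strand) encodes substance P and neurokinin A. The opioid precursors are Penk (ENSMUSG00000045573, chr4:4133531-4138819, minus strand), source of the enkephalins, and Pdyn (ENSMUSG00000027400, chr2:129686565-129699844, minus strand), source of the dynorphins. Adcyap1 (ENSMUSG00000024256, chr17:93199017-93206537, plus strand) encodes PACAP, a relative of vasoactive intestinal peptide that raises cAMP in its target cells.

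Promoter sequences from RefSeq (GRCm38.p6) were found for 8 of the 10 genes. Those of 6 are shown, because Sst, Cort and Cck varied together between libraries, as did Vip, Pdyn and Adcyap1. These sets were not separate: Cck also varied with Pdyn (Pearson r = 0.65, group means removed) and with Adcyap1 (r = 0.56). Shared control through these promoters was not tested. Each line gives the 150 bases before the transcription start of RefSeq, 5′ to 3′ on the strand of the gene. That start matches the GENCODE gene for all of the 8 but Sst, Tac1 and Pdyn. Most of the Sst window lies inside the GENCODE gene, and the Pdyn window lies a short way upstream of the GENCODE gene. Capitals mark the cAMP response element TGACGTCA, the letters that the factor CREB binds, or its shorter core TGACG or CGTCA.
Sst (chr16:23890845-23890994, minus strand): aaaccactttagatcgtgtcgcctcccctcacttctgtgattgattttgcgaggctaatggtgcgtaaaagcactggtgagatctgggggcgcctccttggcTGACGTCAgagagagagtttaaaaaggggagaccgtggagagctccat
Cort (chr4:149126764-149126913, minus strand): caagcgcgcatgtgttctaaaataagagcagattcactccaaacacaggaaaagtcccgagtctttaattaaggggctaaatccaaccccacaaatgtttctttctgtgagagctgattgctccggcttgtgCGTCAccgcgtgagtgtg
Cck (chr9:121495695-121495844, minus strand): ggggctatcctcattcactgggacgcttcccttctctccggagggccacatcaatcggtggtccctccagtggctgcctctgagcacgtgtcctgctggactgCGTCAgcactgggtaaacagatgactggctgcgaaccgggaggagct
Vip (chr10:5639068-5639217, plus strand): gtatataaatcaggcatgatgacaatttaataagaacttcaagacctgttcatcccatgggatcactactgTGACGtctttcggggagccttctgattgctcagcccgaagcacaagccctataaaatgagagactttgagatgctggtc
Pdyn (chr2:129699939-129700088, minus strand): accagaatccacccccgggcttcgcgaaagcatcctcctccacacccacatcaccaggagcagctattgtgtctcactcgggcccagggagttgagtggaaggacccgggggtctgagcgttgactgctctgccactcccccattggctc
Adcyap1 (chr17:93198867-93199016, plus strand): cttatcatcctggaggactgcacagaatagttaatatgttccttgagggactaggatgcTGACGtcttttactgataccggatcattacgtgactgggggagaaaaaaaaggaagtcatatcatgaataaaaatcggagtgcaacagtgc

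The letters were searched on both strands in the 250 bases before the start. The whole element TGACGTCA was found in 1 of the 8 promoters, that of Sst, from position -48 to -41, and the 2 cores counted there are the overlapping ends of that element. The core was found in 6 of the 8 promoters. It lay at -79 in Vip, -91 in Adcyap1, -47 in Cck and -18 in Cort, and at -197 and -43 in Tac1. No match lay in the windows of Npy and Pdyn. Of 32851 mouse promoters searched in the same way, 1.55% held the element and 17.8% the core. A match describes letters only.

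The libraries held 22984556 to 35969254 reads each. Values are normalized counts, the reads of a gene divided by the size factor of its library. Shank3, the targeted gene, had medians of 8047, 9993 and 7756 in HT mice given fluoxetine, lithium and vehicle, and 7542, 7926 and 7616 in WT mice given the same, values that carry no information on the allele. Markers of cortical excitatory neurons were present in every library, with a summed level of 36298 to 79151. Markers of neighbouring regions were not equal between libraries. The summed level of 8 olfactory bulb markers ran from 904 to 22865, with 2 of them at 0 in some libraries (Eomes in 3, Tbx21 in 2). Striatal markers (10 in the table) summed to 635 to 4261, with Six3 at 0 in 20 libraries and Isl1 in 36. Hypothalamic markers (2 of 6 in the table) summed to at most 128, and choroid plexus markers (5 of 6) to at most 131 outside 1 HT vehicle female with 52695. Of the libraries, 7 stood apart, with a bulb or striatal index (marker levels scaled to their average over the libraries, then averaged) over 2.5: 3 WT fluoxetine females, 1 HT lithium female, 1 HT vehicle female, 1 HT vehicle male and 1 WT lithium female. Just under this cut lay bulb indices of 2.48 in HT fluoxetine male 5, 2.46 in HT vehicle male 5 and 2.39 in WT lithium female 1. Fits without the 7 keep these libraries.

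All 10 precursors were detected in all 59 libraries. Per kilobase of exon in WT vehicle mice, Cck averaged 6202 ± 969 normalized counts, Sst 5659 ± 874 and Npy 4464 ± 436 (SD, n = 10). Penk followed at 899 ± 254 and Vip at 366 ± 64.5. Adcyap1 at 254 ± 30.7, Pdyn at 248 ± 49.5 and Cort at 215 ± 38.1 lay close together, and Tac1 at 141 ± 34.4 and Crh at 113 ± 26.1 were lowest. Cck thus stood 55.0-fold over Crh on this scale. Between neighbours in the order, only Npy and Penk, and Penk and Vip, had ranges that did not overlap. Across the 6 arms the order varied at 2 places. Sst came before Cck in HT fluoxetine and WT lithium mice, and Adcyap1 came before Pdyn in HT fluoxetine and WT vehicle mice. With the length of the longest coding transcript in place of all exons, Cck averaged 10129 and Vip 815 normalized counts per kilobase in WT vehicle mice, and Cck stood 89.9-fold over Crh. On that scale Cck led in all 6 arms, Vip came before Penk in HT fluoxetine mice, and Tac1 ranked 6 in 5 of the arms and 7 in HT lithium mice.

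**Figure D1:**
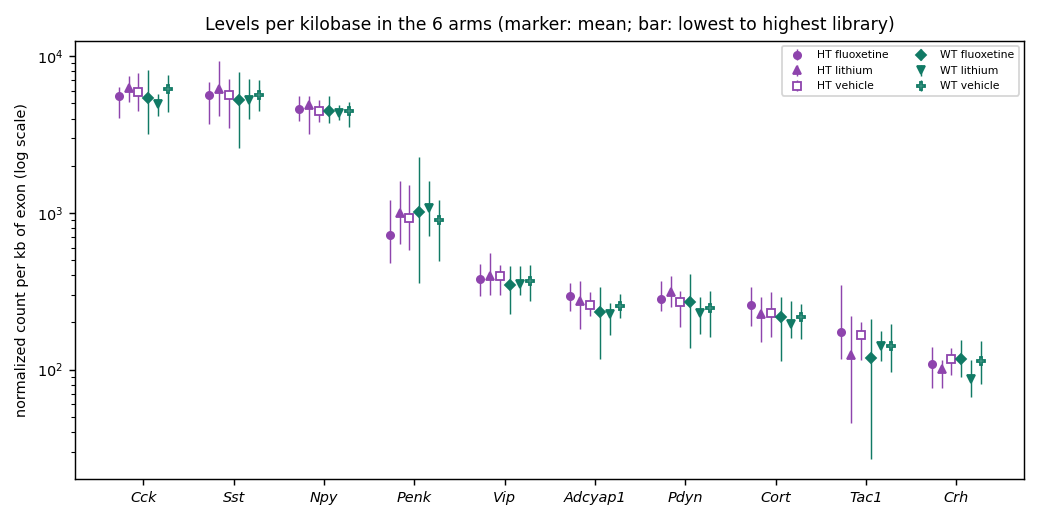
Normalized count per kilobase of exon (log axis) for the 10 genes in each of the 6 arms; markers are arm means and bars run from the lowest to the highest library. Cck, Sst and Npy form the upper group, with means of 6202, 5659 and 4464 in WT vehicle mice, and Crh lies lowest at 113.

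The genes differed in how much they varied between mice. Over the 59 libraries Tac1 ran from 91.5 to 1171 normalized counts, a 12.8-fold range, and Penk from 581 to 3741, a 6.44-fold range. Npy was the steadiest, from 1812 to 3154, a 1.74-fold range. The SD within groups on the log2 scale was 0.53 for Penk and 0.52 for Tac1, at the 93.6th and 93.4th percentiles of the 16599 tested genes, against 0.17 for Npy and a median of 0.18 over all tested genes. Values of all genes by arm show where the spread lies: the WT fluoxetine females hold both the highest and the lowest library for Penk, Cck and Pdyn, and the lowest for Sst, Vip, Tac1, Cort and Adcyap1.

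**Figure D2:**
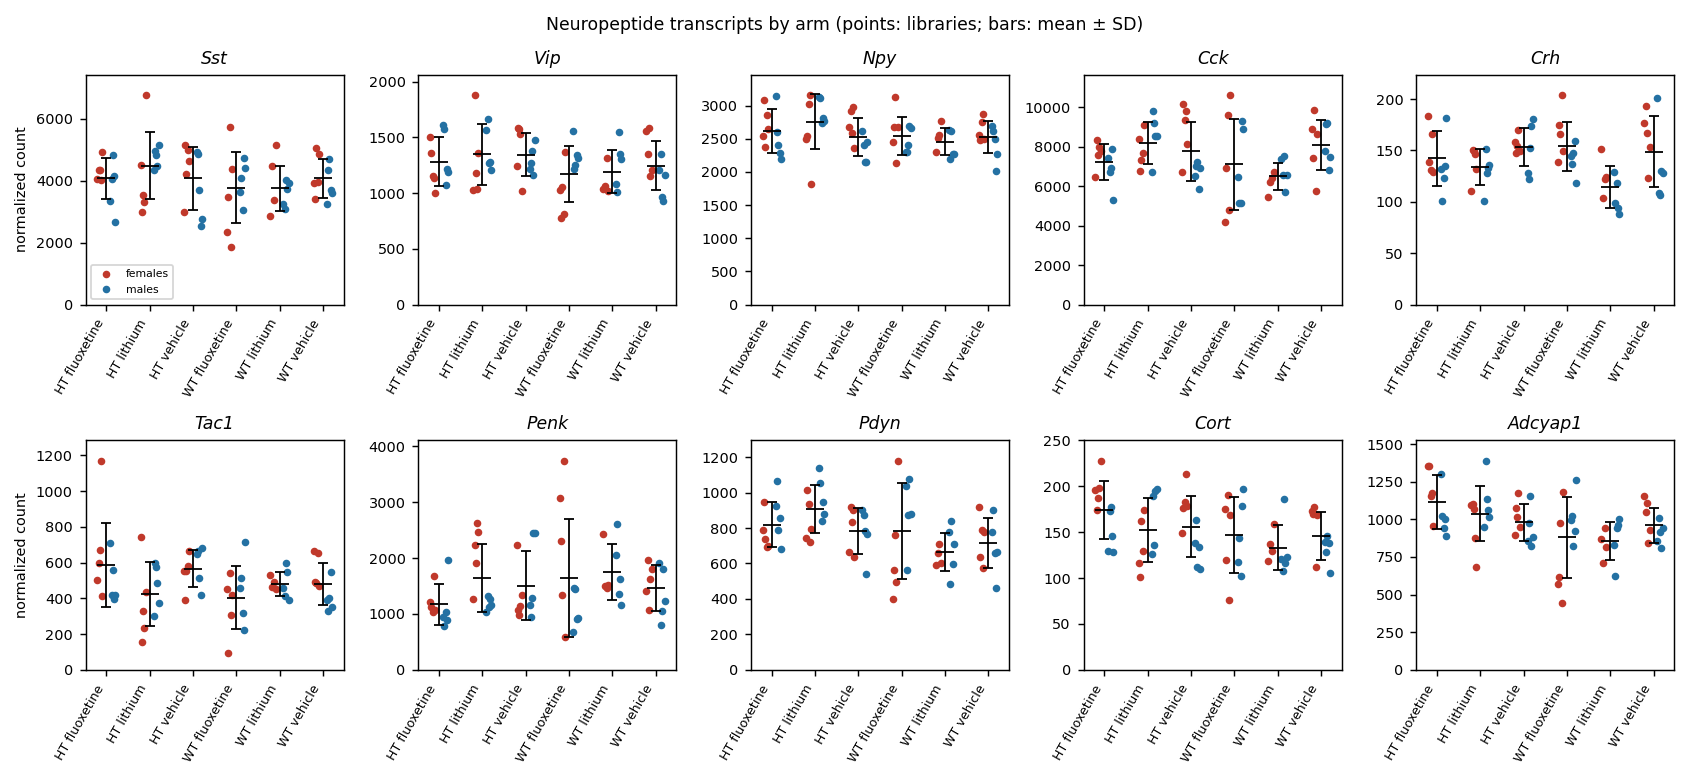
Normalized count of each gene in every library by arm (points, females left and males right in each arm), with the arm mean ± SD. The arms overlap for all 10 genes, and WT fluoxetine mice show the widest spread for Penk, Cck, Pdyn and Adcyap1.

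The first question was what lithium did to these transcripts. In WT mice Crh fell and no other member passed the test. In lithium-treated WT females Crh had 151.6, 103.7, 122.5 and 123.8 normalized counts, and in lithium-treated WT males 129.3, 98.7, 118.2, 94.2 and 87.7. In vehicle WT females it had 176.7, 192.9, 166.8, 123.4 and 153.7, and in vehicle WT males 201.4, 108.5, 106.2, 129.8 and 128.0. The lithium values lay lower in both sexes, while the ranges of the 2 arms overlapped. The mean was 114 ± 20.2 (SD, n = 9) with lithium and 149 ± 34.5 (n = 10) with vehicle, a log2 fold change of -0.35 ± 0.11 (SE, 95% interval -0.56 to -0.13; limma adjusted p = 0.0247). This was 1 member of 10 called, where 12.8% of all tested genes were called in this comparison and 5.11% were called as lower. edgeR also called Crh, and DESeq2 called Crh and Cck.

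The Crh call did not hold in every setting. Without the 7 libraries that stood apart the change was -0.30 (adjusted p = 0.0661), and without the WT vehicle male at 201.4 it was -0.27 (adjusted p = 0.0734). It also missed the threshold without any of 3 other libraries: the WT lithium female at 103.7 (-0.30), the WT lithium male at 87.7 (-0.32) and the WT vehicle female at 192.9 (-0.31). The olfactory bulb markers, with which Crh varied, had a median index of 0.718 in WT lithium mice and 1.188 in WT vehicle mice. With both indices as covariates the Crh change was -0.31 (adjusted p = 0.014).

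In HT mice no member passed with lithium, where 20.3% of all tested genes were called and 5344 had an unadjusted p under 0.05, among them 1 member. edgeR and DESeq2 also called no member. Crh ran from 100.8 to 151.4 with a median of 134.5 in HT lithium mice, and from 122.6 to 180.7 with a median of 152.9 in HT vehicle mice (log2 fold change -0.20 ± 0.10, limma adjusted p = 0.18). The difference between the lithium effects on Crh in HT and WT mice was 0.15 ± 0.15 (adjusted p = 0.734), so the effects were not shown to differ. In that comparison of the genotypes 0.00602% of all tested genes passed, no member did, and 2020 genes had an unadjusted p under 0.05.

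The largest change with lithium in HT mice was in Tac1, and it did not pass. Tac1 ran from 155.3 to 743.7 with a median of 404.8 in HT lithium mice, and from 389.0 to 682.0 with a median of 566.4 in HT vehicle mice. The fold change was -0.53 ± 0.23 (limma adjusted p = 0.0993). Leaving out the HT lithium female at 743.7 gave -0.68 with an adjusted p of 0.0282. In WT mice the same comparison gave 0.04 ± 0.24, and the genotype by lithium difference of -0.57 ± 0.33 did not pass (adjusted p = 0.495).

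Cck had the next smallest p with lithium in WT mice. It ran from 5446 to 7500 with a median of 6558 in WT lithium mice, and from 5747 to 9853 with a median of 8200 in WT vehicle mice. The fold change was -0.31 ± 0.12 (limma adjusted p = 0.0835). It passed in 6 of the alternative settings, among them quantile normalization (-0.34, adjusted p = 0.0229), DESeq2 (-0.33, adjusted p = 0.0476) and the fit without the 7 libraries that stood apart (-0.32, adjusted p = 0.0344). In HT mice Cck ran from 6696 to 9794 with lithium and from 5844 to 10166 with vehicle, a change of 0.09 ± 0.12 that did not pass. The difference between the genotypes was 0.41 ± 0.17 (adjusted p = 0.325).

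Of the other peptides, none was called with lithium in either genotype. The narrowest intervals were those of Npy, with a change of 0.12 ± 0.07 in HT mice (95% interval -0.03 to 0.26) and -0.03 ± 0.07 in WT mice (-0.18 to 0.12). Sst had log2 fold changes of 0.15 ± 0.15 in HT mice and -0.12 ± 0.16 in WT mice, neither past the threshold. Over all members, 6 of 10 values lay above 0 in HT mice, with a median of 0.08, and 2 of 10 in WT mice, with a median of -0.11, while the medians of all tested genes were within 0.01 of 0. The HT and WT comparisons of lithium use separate vehicle libraries.

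**Figure D3:**
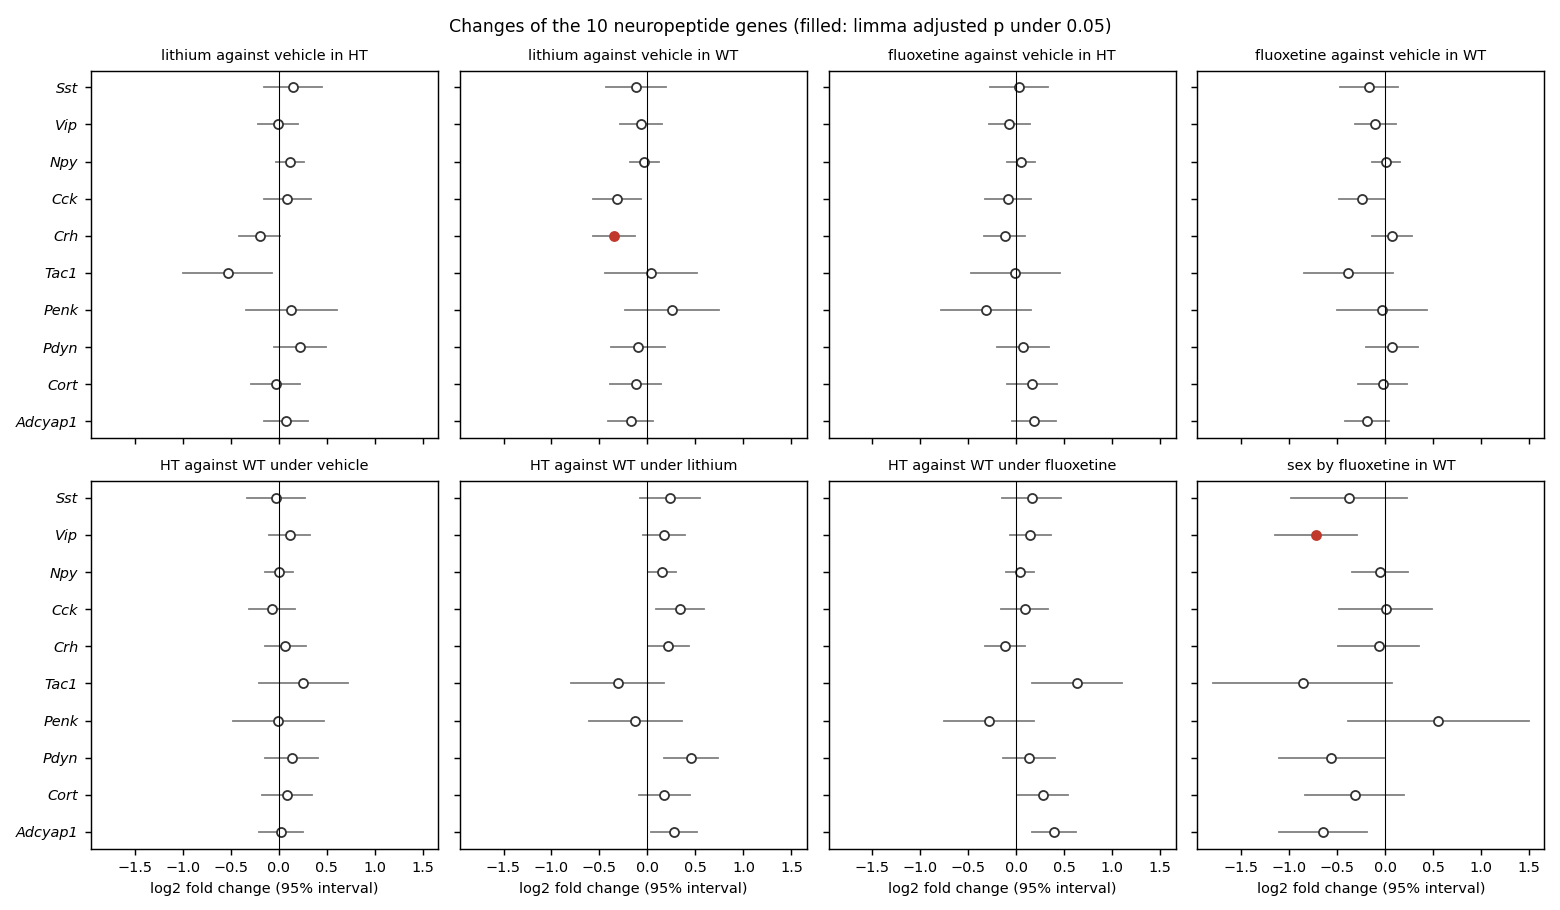
Log2 fold changes of the 10 genes with 95% intervals in 8 comparisons; filled points passed a limma adjusted p of 0.05. Crh with lithium in WT mice (-0.35) and Vip in the sex by fluoxetine comparison in WT mice (-0.72) are the 2 filled points.

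Fluoxetine left the 10 transcripts without a call in either genotype when the sexes were averaged. In HT mice 0.277% of all tested genes were called, and no member had an unadjusted p under 0.05. In WT mice 5.66% of tested genes were called, and 1 member, Cck, had an unadjusted p under 0.05. edgeR and DESeq2 called no member in either comparison. Cck ran from 4157 to 10593 with a median of 6686 in WT fluoxetine mice, and from 5747 to 9853 with a median of 8200 in WT vehicle mice (-0.24 ± 0.12, limma adjusted p = 0.239). In HT mice the largest change was that of Penk, at 782 to 1972 with a median of 1057 with fluoxetine, and 950 to 2457 with a median of 1217 with vehicle (-0.32 ± 0.23, adjusted p = 0.637). With the bulb and striatal indices as covariates, Sst (-0.28, adjusted p = 0.012) and Cck (-0.32, adjusted p = 0.00617) passed in WT mice. Without the libraries that stood apart the values had the opposite sign and did not pass, at 0.14 for Sst (adjusted p = 0.568) and 0.05 for Cck (adjusted p = 0.833). No member passed the limma test of a genotype difference in the response to fluoxetine, and edgeR and DESeq2 called no gene. Here 0% of tested genes passed and 844 had an unadjusted p under 0.05, among them Adcyap1 (0.37 ± 0.16, adjusted p = 0.947).

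Vip was called in the limma test of whether the effect of fluoxetine differed between the sexes in WT mice. That call did not hold without the libraries that stood apart. In fluoxetine WT females Vip had 1026, 773, 1057, 815 and 1368 normalized counts, against 1561, 1350, 1583, 1155 and 1204 in vehicle WT females. In fluoxetine WT males it had 1557, 1216, 1249, 1339 and 1313, against 1207, 1349, 962, 929 and 1162 in vehicle WT males. Fluoxetine values thus lay mostly below vehicle values in females and mostly above them in males, with overlap in both sexes. The change was -0.46 ± 0.16 in females (limma adjusted p = 0.0769) and 0.26 ± 0.12 in males (adjusted p = 0.247). Their difference, females minus males, was -0.72 ± 0.21 (95% interval -1.14 to -0.30, adjusted p = 0.0268). It was 1 member of 10 called, where 8.66% of all tested genes were called in this comparison and 5.08% had a negative difference that was called. edgeR and DESeq2 each called Vip and no other member.

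Regional markers differed between the same groups, and single libraries moved the value. The fluoxetine females at 1026, 773 and 815 are the 3 WT fluoxetine females that stood apart. The bulb index ran from 0.121 to 4.26 with a median of 2.56 in WT fluoxetine females, and from 0.128 to 2.09 in WT vehicle females. In WT fluoxetine males it ran from 0.116 to 1.48, and in WT vehicle males from 0.447 to 2.22. Without the libraries that stood apart the difference was -0.44 (adjusted p = 0.382), with the trend on GC content removed -0.43 (adjusted p = 0.259), and with the 2 indices as covariates -0.55 (adjusted p = 0.0375). Over all tested genes, 1438 passed in this comparison, 2 without those libraries and 1 with the GC trend removed. In fits that left out each library in turn the difference ran from -0.84 to -0.63 and missed the threshold without 7 libraries: 2 WT fluoxetine females (773 and 815), 1 WT fluoxetine male (1557), 2 WT vehicle females (1561 and 1583) and 2 WT vehicle males (962 and 929).

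Adcyap1 and Pdyn had the same sign in that comparison but did not pass. Adcyap1 had 567.6, 614, 974, 442 and 1179 normalized counts in WT fluoxetine females and 993, 1020, 824, 922 and 1264 in WT fluoxetine males. The females at 567.6, 614 and 442 are again those that stood apart. The sex by fluoxetine difference was -0.65 ± 0.23 for Adcyap1 (limma adjusted p = 0.0614), -0.56 ± 0.27 for Pdyn (adjusted p = 0.177) and -0.86 ± 0.46 for Tac1 (adjusted p = 0.23). Without the libraries that stood apart it was -0.05 for Adcyap1 (adjusted p = 0.936), 0.02 for Pdyn (adjusted p = 0.978) and -0.25 for Tac1 (adjusted p = 0.841). In HT mice the same difference for Vip was -0.19 ± 0.21 (adjusted p = 0.997). No member and 0% of tested genes passed there, with 881 at an unadjusted p under 0.05. edgeR called 0 genes and DESeq2 5, none of them members.

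The genotype comparisons asked whether the knock-in allele moved the peptides. Under vehicle, lithium or fluoxetine, limma called 0% of tested genes and no member between HT and WT mice. Genes at an unadjusted p under 0.05 numbered 1074, 1839 and 1883 in that order of treatments, with 0, 5 and 3 members among them. edgeR called 0, 0 and 1 genes, and DESeq2 6, 29 and 9, none of them members. Under vehicle the largest difference was that of Tac1, at 389.0 to 682.0 in HT mice and 330 to 664 in WT mice (0.26 ± 0.23, limma adjusted p = 0.907). Npy differed by 0.00 with a 95% interval of -0.14 to 0.15, and Vip by 0.12 ± 0.11. Adcyap1 differed by 0.03 ± 0.11, and Penk by 0.00 ± 0.23. No member passed the test of whether the genotype difference under vehicle depended on sex, where 0.00602% of all genes were called and 1660 had an unadjusted p under 0.05.

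Under lithium, Pdyn ran from 721.6 to 1138 with a median of 906.9 in HT mice, and from 486.9 to 841.5 with a median of 658.0 in WT mice. All 10 HT lithium libraries lay above the WT lithium median, with overlapping ranges, and at 0.46 ± 0.14 the difference missed the threshold (limma adjusted p = 0.239). The bulb index, against which Pdyn varied, had a median of 0.226 in HT lithium mice and 0.718 in WT lithium mice, and with the indices as covariates the difference was 0.29. Cck (0.34 ± 0.12, adjusted p = 0.316) and Adcyap1 (0.28 ± 0.12, adjusted p = 0.379) had the next smallest p-values. Under fluoxetine, Adcyap1 ran from 890.8 to 1356 with a median of 1089 in HT mice, and from 442.3 to 1264 with a median of 948 in WT mice, a difference of 0.39 ± 0.11 (adjusted p = 0.199). It was 0.75 in females alone and 0.04 in males alone, and leaving out the WT fluoxetine female at 1179 gave 0.49 (adjusted p = 0.0253). That library did not stand apart, with a bulb index of 0.121. The bulb index had a median of 2.56 in WT fluoxetine females and 0.494 in HT fluoxetine females. With group means removed, Adcyap1 varied against this index at Pearson r = -0.46, and at -0.18 without the libraries that stood apart.

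Between the sexes over the 6 arms no member passed the limma test, where 0.217% of all tested genes were called and 1707 had an unadjusted p under 0.05. The members with an unadjusted p under 0.05 were Crh and Penk, and edgeR and DESeq2 called none. Crh ran from 103.7 to 203.5 with a median of 149.3 in females, and from 87.7 to 201.4 with a median of 129.6 in males (0.18 ± 0.06, adjusted p = 0.256). Penk ran from 581 to 3741 with a median of 1497 in females, and from 676 to 2614 with a median of 1195 in males (0.30 ± 0.14, adjusted p = 0.427). The response to lithium in HT mice differed by sex in 0.012% of tested genes and in no member. There 2838 genes and 4 members had an unadjusted p under 0.05, and neither edgeR nor DESeq2 called a member.

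In that comparison Cort had the smallest p. It had 116.8, 101, 162, 129.8 and 174 normalized counts in HT lithium females, against 149, 177, 183, 213 and 179 in HT vehicle females. In HT lithium males it had 126, 189, 136, 194 and 196, against 138, 163, 112, 133 and 109.6 in HT vehicle males. Lithium values lay mostly below vehicle values in females and mostly above them in males. At -0.76 ± 0.26 the difference missed the threshold (limma adjusted p = 0.167). The median bulb index was 1.39 in HT lithium females against 0.454 in HT vehicle females, and 0.146 in HT lithium males against 1.04 in HT vehicle males. With the indices as covariates the difference was -0.46. Npy had a difference of -0.39 ± 0.14 (adjusted p = 0.192), and in males alone its change with lithium was 0.31 (adjusted p = 0.018). In WT mice no member passed the sex by lithium test, where limma called 0% of tested genes, 1467 had an unadjusted p under 0.05, edgeR called 0 genes and DESeq2 24, none of them members. Vip had the smallest p there (-0.47 ± 0.22, adjusted p = 0.513). The sex by lithium and sex by fluoxetine comparisons in WT mice share the vehicle libraries. In these Vip averaged 1370 normalized counts in females and 1122 in males.

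Within groups some pairs of the peptides varied together and others in opposite directions. With group means removed, 18 of 45 pairs of genes had a Pearson correlation over the 59 libraries with an adjusted permutation p under 0.05, 12 positive and 6 negative. Of the 6 negative pairs, 5 included Penk, and Tac1 was in none of the 18. The peptides were measured in the same libraries and share their depth and tissue makeup. The share of all gene pairs that passes was not computed. Thus 18 of 45 is not shown to be particular to the peptides. The smallest p that the permutations can give is 1e-05. Spearman's rho also called 18 pairs. Females alone gave 10 pairs, males alone 15 and the libraries that did not stand apart 14.

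The strongest pair by Pearson r over all 59 libraries was Penk and Pdyn, the opioid precursors (r = -0.71, permutation p = 1e-05, adjusted 0.00015). Its rho was -0.64 (permutation p = 1e-05), and r was -0.63 without the 2 most distant libraries, -0.75 in females and -0.67 in males. Sst varied with Cck (r = 0.69, permutation p = 1e-05, adjusted 0.00015; rho = 0.66, permutation p = 1e-05; r = 0.64 without the 2). It also varied with Cort (r = 0.62, permutation p = 4e-05, adjusted 0.0003; rho = 0.58, permutation p = 5e-05; r = 0.62 without the 2). Vip varied with Pdyn (r = 0.68, permutation p = 1e-05, adjusted 0.00015; rho = 0.73, permutation p = 1e-05; r = 0.67 without the 2) and with Adcyap1 (r = 0.58, permutation p = 8e-05, adjusted 0.0004; rho = 0.59, permutation p = 4e-05; r = 0.56 without the 2). Penk and Pdyn did not rank first by rho, nor by r without the libraries that stood apart. Without those libraries r was -0.56 for Penk and Pdyn and 0.69 for Vip and Pdyn. It was 0.62 for Sst and Cort, 0.53 for Vip and Adcyap1, and 0.51 for Sst and Cck.

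**Figure D4:**
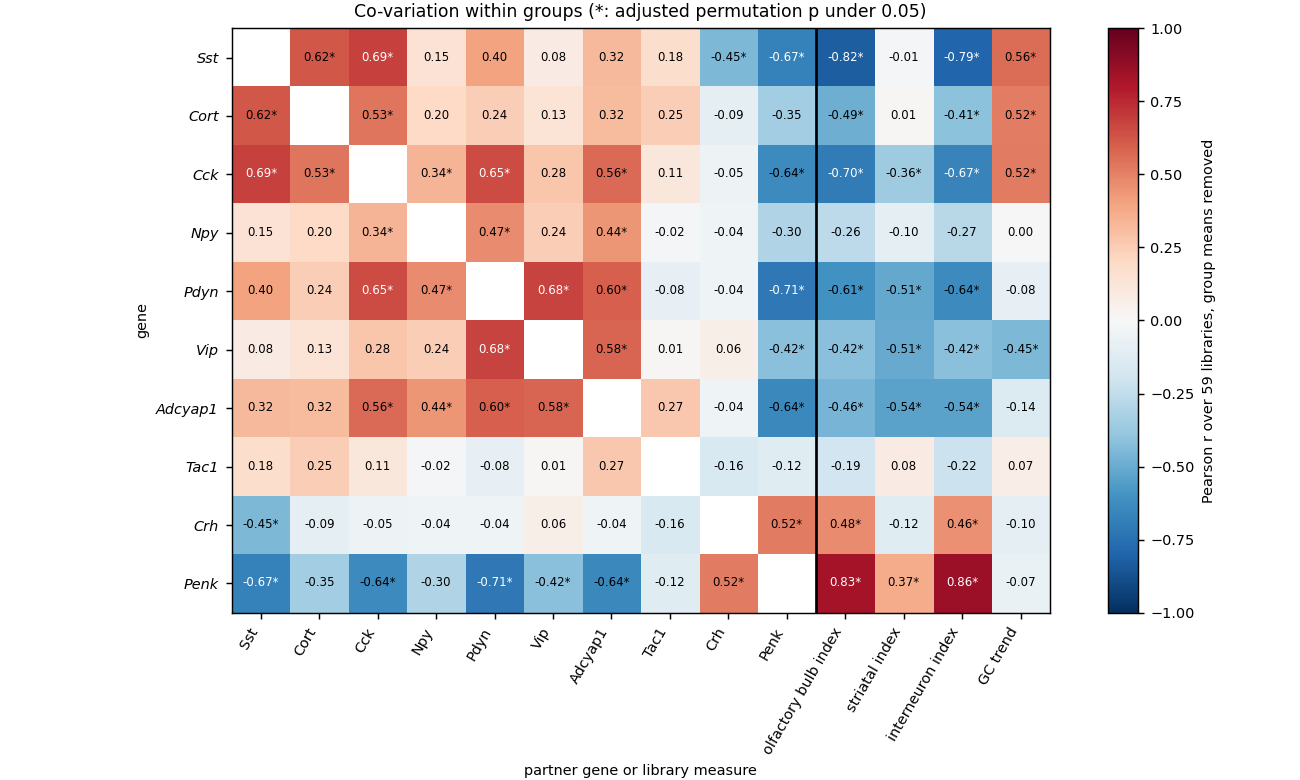
Pearson correlations over 59 libraries with group means removed, between the 10 genes (left block) and with 4 library measures (right block); asterisks mark an adjusted permutation p under 0.05. Penk stands against Pdyn (-0.71), Sst (-0.67), Adcyap1 (-0.64) and Cck (-0.64), and with the olfactory bulb index (0.83).

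The same libraries that were high in olfactory bulb markers were high in Penk and low in Sst. Over 59 libraries with group means removed, the bulb index correlated with Penk at r = 0.83 (permutation p = 1e-05, adjusted 6.7e-05; rho = 0.86, permutation p = 1e-05) and with Sst at r = -0.82 (permutation p = 1e-05, adjusted 6.7e-05; rho = -0.81, permutation p = 1e-05). Without the libraries that stood apart these were 0.74 and -0.75, and without the 2 most distant libraries 0.82 and -0.81. Penk gave 0.79 in females and 0.90 in males, and Sst -0.85 in females and -0.78 in males. Cck (-0.70), Pdyn (-0.61), Cort (-0.49), Adcyap1 (-0.46) and Vip (-0.42) varied against the bulb index, and Crh with it (0.48). Npy and Tac1 did not pass. Without the libraries that stood apart, Cck gave -0.57, Pdyn -0.41, Cort -0.43, Adcyap1 -0.18, Vip -0.27 and Crh 0.52. The striatal index correlated with Adcyap1 (-0.54), Pdyn (-0.51), Vip (-0.51), Penk (0.37) and Cck (-0.36). A measure of the trend of counts on GC content correlated with Sst (0.56), Cck (0.52), Cort (0.52) and Vip (-0.45). An interneuron index, made in the same way from interneuron genes such as Gad1, Slc32a1 and Lhx6 and holding none of the 10 peptides, gave values close to those of the bulb index, and its correlation with Penk was the largest of the 40 computed (r = 0.86, permutation p = 1e-05, adjusted 6.7e-05; rho = 0.87, permutation p = 1e-05; r = 0.84 without the 2 most distant libraries). Calb2, also in this index, ran from 261 to 6590 normalized counts over the libraries, and Lhx6 from 215 to 689. Whether the index followed cortical interneurons or bulb tissue was not tested. The interneuron index correlated against Sst (-0.79), Cck (-0.67), Pdyn (-0.64), Adcyap1 (-0.54), Vip (-0.42) and Cort (-0.41), and with Crh (0.46). In all, 25 of 40 such relations passed, and the share over all tested genes was not computed. With the GC trend removed, in a setting chosen after seeing the data, 23 pairs of peptides passed. The part of these library differences in the correlations among the peptides was not tested.

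**Figure D5:**
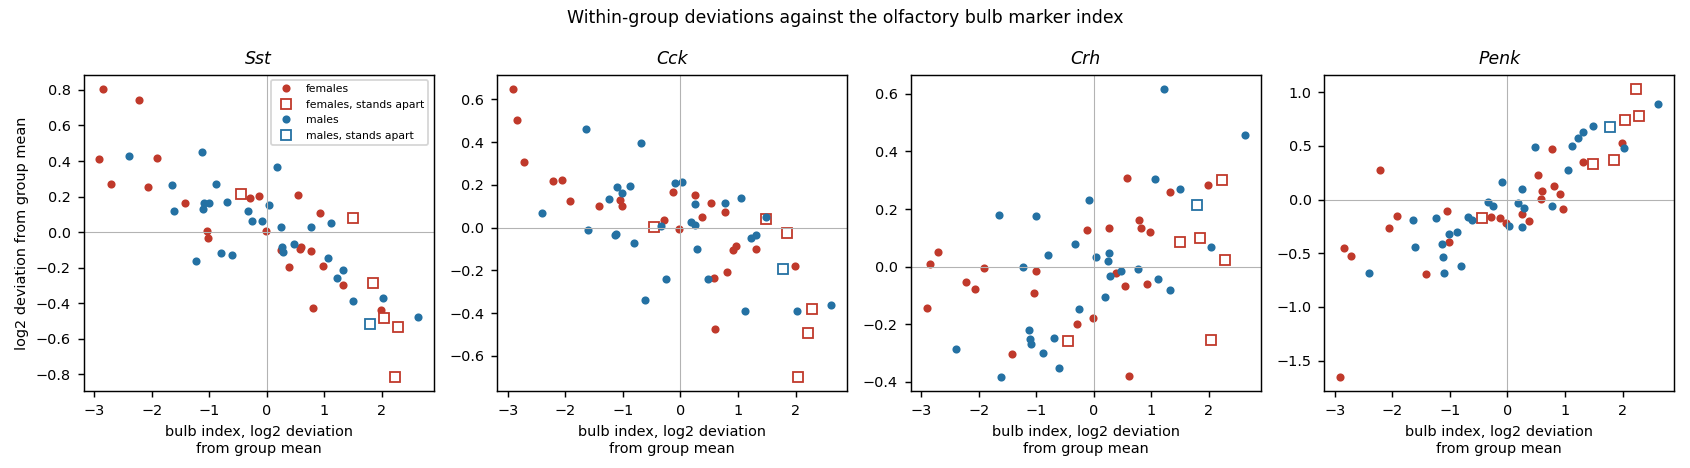
Log2 deviation from the group mean of Sst, Cck, Crh and Penk against that of the olfactory bulb index, one point per library (squares: libraries that stand apart). Penk is higher where the index is higher (r = 0.83) and Sst is lower there (r = -0.82), in females and in males.

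The tested genes whose pattern lay closest to each peptide, by Pearson r over the 59 libraries with group means removed, are given as a description. Klc2, Rap1gap and Hk1 lay closest to Sst, each at r = 0.96. Hap1 (0.93), Kat6b (0.91) and Plekha2 (0.91) lay closest to Penk. Dact3 (0.90), Ttc9b (0.90) and Abhd17a (0.89) lay closest to Cck, and Hkdc1 (0.89), Rgs8 (0.87) and C77080 (0.87) to Pdyn. Sub1 (0.85), Ndfip1 (0.81) and Eid1 (0.78) lay closest to Vip, and Tspan13 (0.83), Rgs4 (0.82) and Grm7 (0.80) to Adcyap1. The nearest genes of the other members had lower values, at 0.73 for Tac1 (BB031773), 0.70 for Cort (Pgs1), 0.69 for Crh (Crebzf) and 0.68 for Npy (Gnpda1). With the GC trend removed, the closest to Sst were Btbd10 (0.96), Pde1a (0.95) and Chrna4 (0.95), while Klc2, Rap1gap and Hk1 gave 0.92, 0.93 and 0.93. The closest gene then became Scg5 for Vip (0.82), B2m for Npy (0.75) and Ttc9b for Cck (0.86).

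Some receptors of the peptides passed the test. Of 22 listed receptor and binding protein genes, 20 were in the table and 19 were tested. With lithium in HT mice 3 were higher and 1 lower of the 19, where 20.3% of all genes were called. The median change over the list was 0.02. Oprd1, the delta opioid receptor on which enkephalins act, rose: it had 533 to 733 normalized counts with a median of 630 in HT lithium mice, against 406 to 550 with a median of 487 in HT vehicle mice (0.37 ± 0.09, limma adjusted p = 0.00166). Cckbr, the main cortical cholecystokinin receptor, rose to a mean of 2438 ± 356 in HT lithium mice, against 1935 ± 352 in HT vehicle mice (SD, n = 10 each; 0.34 ± 0.10, adjusted p = 0.0102). Sstr3, a somatostatin receptor, rose by 0.21 ± 0.07 (adjusted p = 0.0176). Tacr3, the receptor of neurokinin B, fell to 15.9 ± 3.94 in HT lithium mice, against 28.2 ± 6.66 in HT vehicle mice (-0.78 ± 0.21, adjusted p = 0.00484). With the GC trend removed, Cckbr (0.24) and Sstr3 (0.09) no longer passed, while Oprd1 (0.28) and Tacr3 (-0.72) did. Each of these calls was lost in females only, and the Cckbr change ran from 0.08 to 0.60 over the alternative settings.

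Oprd1 also passed in WT mice with each drug. It had 550 to 722 normalized counts with a median of 616 in WT lithium mice and 390 to 785 with a median of 618 in WT fluoxetine mice, against 316 to 599 with a median of 454 in WT vehicle mice. The changes were 0.47 ± 0.09 with lithium (limma adjusted p = 0.000285) and 0.41 ± 0.09 with fluoxetine (adjusted p = 0.00256), and these 2 comparisons share the vehicle libraries. It was the only receptor of the 19 called with either drug in WT mice. No receptor was called with fluoxetine in HT mice or in the genotype comparisons. The lithium call in WT mice held in all 14 alternative settings, and the fluoxetine call in 12 of 14, missing with the groups compared alone and in females only.

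Among the genes that package and process the peptides, all 17 listed were tested. With lithium 3 were higher and 1 lower in HT mice, where 20.3% of all genes were called, and 2 were higher and 1 lower in WT mice, where 12.8% were. The medians over the list were 0.09 in HT and 0.02 in WT mice. Vgf, a granin-family precursor of dense-core vesicles that follows neuronal activity, rose in both genotypes. It had 4589 to 7392 normalized counts with a median of 5919 in HT lithium mice, against 2912 to 4318 with a median of 3619 in HT vehicle mice, ranges that did not overlap. In WT mice it had 4116 to 7015 with a median of 4766 with lithium, against 2841 to 4703 with a median of 3724 with vehicle. The changes were 0.74 ± 0.12 in HT mice (limma adjusted p = 2.16e-05) and 0.47 ± 0.13 in WT mice (adjusted p = 0.00878).

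Scg5, the chaperone 7B2 of prohormone convertase 2, fell in both genotypes, by 0.19 on the log2 scale in HT mice (adjusted p = 0.0179) and by 0.24 in WT mice (adjusted p = 0.00601). Each of these calls held in 12 of 14 alternative settings. The one in HT mice was lost in females only and in males only, and the one in WT mice in males only (-0.12) and with the length trend removed (-0.15). In HT mice the granins Chga (0.32 ± 0.10, adjusted p = 0.0162) and Chgb (0.26 ± 0.07, adjusted p = 0.00732) rose. In WT mice Cadps, a priming factor of dense-core vesicles, rose by 0.16 ± 0.05 (adjusted p = 0.0219), a call that held in 9 of 14 alternative settings, with a lowest value of 0.06 with the length trend removed. With the GC trend removed, Chga (0.18) and Chgb (0.19) no longer passed, and Vgf did in both genotypes (0.55 in HT and 0.51 in WT mice). Chga and Chgb were also lost in females only, and the Vgf call in WT mice in females only and in males only. The convertases Pcsk1 and Pcsk2 and the carboxypeptidase Cpe were not called in these comparisons. None of the 17 was called with fluoxetine in either genotype or between HT and WT mice.

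Of 22 other peptide precursors listed, 14 were in the table and 12 were tested. Tac2, the precursor of neurokinin B, was the only one called in a drug or genotype comparison. It fell to 162 ± 23.0 normalized counts in HT lithium mice, against 195 ± 35.0 in HT vehicle mice (-0.26 ± 0.10, limma adjusted p = 0.0476), a call that held in 6 of 14 alternative settings. Tacr3, named above as lower in the same mice, is its receptor. Of 17 interneuron identity genes, Pvalb was the only one called with lithium in HT mice, where 20.3% of all genes were. It rose to 716 ± 117.1 in HT lithium mice, against 527 ± 140 in HT vehicle mice (0.47 ± 0.16, adjusted p = 0.0308). That call was lost in females only (0.17) and held in 15 of 20 fits that left out a library. None of the 17 was called in WT mice with lithium. Elfn1, a synaptic adhesion protein of interneurons, was the only one called with fluoxetine in WT mice (0.25 ± 0.07, adjusted p = 0.0232), a call that did not hold without the libraries that stood apart.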

How the data were processed

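RNA of the prefrontal cortex was sequenced with a stranded mRNA kit, per the labels' protocols. Per the submitters' processing notes, the authors used Salmon 0.11.2, GRCm38, R 3.6.0 and DESeq2 1.19.11. The signal they deposited is a gene's reads over its library's size factor, and dividing each column by its smallest step gave whole reads for 100.0% of values within 0.001. Size factors ran from 0.783 to 1.245, and 0 columns were unused.

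Samples were grouped by the labels' genotype, drug and sex into 12 groups. Since the table is normalized, limma 3.58.1 (R 4.3.3; trend, robust, two-sided) was used on log2(normalized count + 1) for genes with a mean of at least 10. The model had 12 group means and 47 residual degrees of freedom, with Benjamini-Hochberg adjustment within each of 15 comparisons at 0.05. Fold changes on this scale understate those of low genes. edgeR 4.0.16 and DESeq2 1.42.0 on the recovered reads were alternatives. Correlations used 100000 permutations within groups (smallest possible p 1e-05), adjusted over 45 pairs or 40 relations. GC and length trends were removed by loess (span 0.5). Steps were tested on simulated data. The genes named are all 10 members, up to 4 called genes of each list by smallest p, and the 3 genes nearest each member. The members and lists were chosen with earlier results of these data known. Python 3.11.15, numpy 2.4.6, pandas 2.3.3, scipy 1.17.1 and matplotlib 3.10.9 were used. All libraries entered the reported values.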

Additional observations from a re-analysis of the deposited data

Results flagged for a closer look

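Each peptide was examined in each of the 12 groups, 120 sets of 4 or 5 libraries. In 8 of them the highest or lowest library lay far from the others by Dixon's test. Chance alone gives about 1 in 20, and 8 of 120 lies near that share. Penk accounted for 4 of the 8. It had 1674 normalized counts in HT fluoxetine female 4, where the other libraries of the group had 1037 to 1213, with a bulb index of 0.855. It had 1972 in HT fluoxetine male 5, against 782 to 1036 in the others, with a bulb index of 2.48. It had 2230 in HT vehicle female 1, against 985 to 1340, with a bulb index of 2.41, and 2423 in WT lithium female 1, against 1463 to 1512, with a bulb index of 2.39.

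Vip had 1311 in WT lithium female 3, against 1016 to 1066 in the other females of the group, with a bulb index of 0.783. Crh had 201.4 in WT vehicle male 1, against 106 to 130, with a bulb index of 2.22. This library also enters the Crh comparison of lithium in WT mice. Cort had 186.2 in WT lithium male 3, against 108 to 123, with a bulb index of 0.426. It was low in WT vehicle female 4 at 112.2, against 169 to 177, with a bulb index of 1.27. The part of tissue makeup in these values was not tested.

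Several effects of fluoxetine differed between females and males in WT mice by the interaction in limma, given as females minus males on the log2 scale. These were Vip (-0.72, adjusted p = 0.0268), Bdnf, a neurotrophin that follows activity (-0.76, adjusted p = 0.041), Slc32a1, the vesicular transporter of GABA (0.79, adjusted p = 0.0341), Elfn1, a synaptic adhesion protein of interneurons (0.43, adjusted p = 0.0431), and Syt4, a synaptotagmin of dense-core vesicles (-0.57, adjusted p = 0.038). None of these calls held without the libraries that stood apart, 3 of which are WT fluoxetine females.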

How the results depend on the processing

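No result called in the reported fit changed its direction in any setting run. Crh with lithium in WT mice missed the threshold with only the groups compared in the model (-0.35, adjusted p = 0.0554), in females only (-0.37) and males only (-0.32), without the libraries that stood apart (-0.30) and with the length trend removed (-0.26). Vip in the sex by fluoxetine comparison in WT mice missed it with only the groups compared (-0.72, adjusted p = 0.0502), without the libraries that stood apart (-0.44) and with the GC trend removed (-0.43). Leaving out each library in turn gave -0.39 to -0.27 for Crh and -0.84 to -0.63 for Vip. Members called with lithium in WT mice numbered 1, but 2 with quantile normalization, DESeq2, index covariates or the GC trend removed, and 0 in females only, males only or with the length trend removed. With lithium in HT mice 1 was called in males only (Npy) and 1 with index covariates (Penk). With fluoxetine in WT mice 2 were called with index covariates, Sst (-0.28) and Cck (-0.32), whose values had the opposite sign without the libraries that stood apart (0.14 and 0.05). In the sex by fluoxetine comparison in WT mice 0 were called with only the groups compared, without the libraries that stood apart or with the GC trend removed. Leaving out each library gave 0 to 2 members with lithium in WT mice, 0 to 1 with lithium in HT mice, 0 to 3 for sex by fluoxetine in WT mice, and 0 to 1 for HT against WT under fluoxetine. Correlated pairs numbered 18, and 10 in females only. The cause of these shifts was not tested. Over all genes, sex by fluoxetine in WT mice gave 1438 calls, and 435 with only the groups compared; fluoxetine in HT mice gave 46, 0 with only the groups compared and 197 with DESeq2. Within-sex fits could not be made for the comparisons that involve sex.

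The replicate numbers did not pair the samples. Of 68 pairs of same-numbered libraries, 16 had a correlation of deviations over 0.1 (median -0.012). In 10 of the 68 the same-numbered library was the best match. A replicate block left the member calls as they were, with -0.35 for Crh (adjusted p = 0.0274) and -0.72 for Vip (adjusted p = 0.0256).

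The correlations with the GC trend removed, within pairs of members and for the nearest genes, were chosen after seeing the data. Crh and Cort, at means of 142 and 152 normalized counts, rest on fewer reads than the other members.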

Other observations

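Genes that follow neuronal activity were called beside the peptides, in lists chosen with earlier results of these data known. Of 12 tested, 4 were higher with lithium in HT mice, where 20.3% of all tested genes were called. Egr1, an early growth response factor, averaged 8419 ± 2084 normalized counts in HT lithium mice and 5759 ± 2361 in HT vehicle mice (SD, n = 10 each; log2 fold change 0.62 ± 0.20, limma adjusted p = 0.025). Egr2 (0.90 ± 0.33, adjusted p = 0.0488), Egr3 (0.33 ± 0.11, adjusted p = 0.0262) and Nptx2, a secreted pentraxin of excitatory synapses (0.26 ± 0.09, adjusted p = 0.0412), were also called, and none of the 12 was called with lithium in WT mice. With the GC trend removed none of the 4 passed, at 0.50 for Egr1, 0.86 for Egr2, 0.29 for Egr3 and 0.12 for Nptx2. Each of the 4 was also lost in females only and without the libraries that stood apart. Egr2 held in 8 of 14 alternative settings and in 6 of 20 fits that left out a library. The difference between the genotypes was not called for any of the 12.

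With fluoxetine in WT mice 2 of the 12 were called, where 5.66% of all tested genes were. Egr3 averaged 5151 ± 1210 in WT fluoxetine mice and 3173 ± 325 in WT vehicle mice (0.67 ± 0.11, adjusted p = 0.000257), and Nptx2 1820 ± 267 in WT fluoxetine mice and 1242 ± 248 in WT vehicle mice (0.57 ± 0.09, adjusted p = 0.000257). Both calls held in all 14 alternative settings and without each library in turn. In HT mice none of the 12 was called with fluoxetine. Among 8 cortical excitatory neuron markers, Cux2, an upper-layer factor, was called with lithium in HT mice at 4085 ± 428 in HT lithium mice and 3058 ± 424 in HT vehicle mice (0.42 ± 0.09, adjusted p = 0.000404), and none was called in WT mice with lithium. The Cux2 call was lost in females only and held in 13 of 14 alternative settings.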
